A study of Mus musculus with 42 samples.

Results

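The comparison described here set the tibialis anterior (TA) muscle of Sesn1KO mice against that of wild-type (WT) mice after hindlimb immobilization. Its members are the 4 Sesn1KO and the 4 WT libraries that the sample labels place in set 2 with immobilized muscle, 8 of the 20 libraries of set 2 and of 42 in all. Of the 13809 genes of the deposited table, the 13629 that reached a value of 1 in any library of set 2 entered the comparison, and none was chosen by its difference between the groups. RNAseq was run on TA muscle of 4-month-old male C57BL/6J mice. The Sesn1KO group carries the Sesn1-/- genotype, and the WT group carries both Sesn1 alleles. In both immobilized groups the right hindlimb was held still with a splint, for 3 days. The labels do not give the day, which was taken from the methods section. The 4 Sesn1KO and 4 WT basal libraries, from mice that were not immobilized, were used for comparison, and the 4 WT denervated libraries of set 2 contributed only to the estimate of the spread. The Sesn1KO line was obtained from another laboratory. In the study's methods the WT group is called normal control mice and also the littermate control of its line, while the labels give no litters, and the part of mouse origin in the differences below was not tested. No source says that the 4 replicates of a group are separate animals, and p-values measure only the spread between these libraries. The spread of a gene was estimated over all 5 groups of set 2 together, as if it were equal in them.

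Sestrins are stress-inducible proteins that restrain mTORC1, the kinase complex that drives protein synthesis, when leucine is scarce, and that favour the activity of AMPK and AKT. Sesn1 is a target of p53 and of FoxO factors and is the main sestrin of skeletal muscle. A muscle that is not used loses mass, as FoxO factors induce the ubiquitin ligases Trim63 (MuRF1) and Fbxo32 (atrogin-1) and as autophagy and protein synthesis shift. The comparison asks which transcripts of disused muscle differ when Sesn1 is missing.

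All levels are the authors' normalized counts, linear and close to CPM in size, and differences are on the log2(value + 1) scale, KO minus WT, which understates the change of low genes. Sesn1 itself was not absent from the immobilized KO libraries. It was at 30.7, 41.0, 53.1 and 39.3 in WT replicates 1 to 4 and at 37.3, 27.7, 19.4 and 19.6 in KO replicates 1 to 4. The groups overlapped through KO replicate 1, and the difference of -0.66 (SE 0.17) missed the threshold (limma, Benjamini-Hochberg adjusted p = 0.069). It passed without WT replicate 1 (adjusted p = 0.049) or without KO replicate 1 (0.016). The library labelled KO replicate 1 thus goes against its label by Sesn1 alone, while in Nnt, Wdfy1 and Dynlt1b, which separated the genotypes in both treatments, it lay with the other KO libraries. In basal muscle the WT libraries were at 28.1, 22.5, 29.7 and 22.8 and the KO libraries at 9.11, 10.1, 8.41 and 8.99. These did not overlap (log2 difference -1.39, adjusted p = 0.00011). From basal to immobilized muscle Sesn1 rose by 1.36 in the KO and by 0.63 in the WT (adjusted p = 3e-06 and 0.0072), and the difference between these changes did not pass the test (adjusted p = 0.43). Which exons the KO allele lacks was not found in the sources used here, so reads from the rest of the transcript cannot be told from intact Sesn1 mRNA, and the table gives 1 value per gene.

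The other sestrins showed no detected difference. Sesn2 ranged from 3.65 to 8.92 in WT and from 4.96 to 6.35 in KO immobilized muscle (-0.10, adjusted p = 0.88), and Sesn3 from 1.76 to 2.43 and from 0.715 to 3.09 (0.06, adjusted p = 0.93). Of the 67 tested genes whose start lies within 10 Mb of Sesn1 on chromosome 10, 0 were called by limma in immobilized muscle, and 7 had an unadjusted p under 0.05. Of all tested genes 0.947% were called and 14.1% had such a p. In basal muscle 1 of the 67, Sesn1, was called.

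The libraries were muscle by their markers, as 12 of 12 skeletal muscle identity genes were measured and their summed level was 119000 to 128000 in WT and 98200 to 137000 in KO immobilized libraries. Library sums were 964609 to 1001232 in WT and 943449 to 1126678 in KO, and the number of reads behind them is unknown. Log2 values of 2 KO libraries correlated at 0.969 to 0.98 across genes, of 2 WT libraries at 0.974 to 0.982, and of a KO with a WT library at 0.96 to 0.984. Transcripts of the mitochondrial genome made up 17 to 18.6% of the summed values in KO and 14.6 to 16.2% in WT immobilized libraries, without overlap, and 20.4 to 22.1% in KO and 17.5 to 20.6% in WT basal libraries, with overlap. The part of that share in the results below was not tested.

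In immobilized muscle 129 of 13629 tested genes (0.947%) were called, which means an adjusted p below 0.05 together with a log2 difference of 0.25 or more in either direction. Of these 72 (0.528%) were higher and 57 (0.418%) lower in the KO. When the values were scaled to the same library sum, 46 were higher and 57 lower. An unadjusted p under 0.05 was reached by 1917 genes (14.1%), 999 higher (7.33%) and 918 lower (6.74%). In basal muscle 20 genes (0.147%) were called, 8 higher (0.0587%) and 12 lower (0.0880%), and this comparison shares no library with the immobilized one. The called differences were moderate, with a median of 0.78 for the higher and -0.84 for the lower genes against -0.01 for all genes, and 35 genes reached an absolute difference of 1. The KO and WT libraries did not overlap in 106 of the 129 called genes, against 575 of all 13629 (4.22%), which had the KO above in 2.05% and below in 2.17% of genes. The count depended on the libraries: it ranged from 40 without WT replicate 2 to 609 without KO replicate 4, was 59 without KO replicate 1 and 68 without WT replicate 1, and was 14 when only the compared groups entered the fit.

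The genes fell into a small group that differed in basal muscle as well and a larger group that was called after immobilization. Called in both treatments, in the same direction, were 16 genes, which are 12.4% of the immobilized and 80% of the basal calls. Of these 6 were higher in the KO (Nnt, Wdfy1, Dynlt1b, Nbea, Cd59a and Rab4a) and 10 were lower. The libraries of 14 of the 16 did not overlap in either treatment, while 4.14% of all genes did not overlap in basal muscle. The other 113 genes, 66 higher and 47 lower, had a basal median difference of 0.02 and -0.11, and 14 of them had an unadjusted p under 0.05 in basal muscle. The test of the difference between the treatments called only 3 genes (0.0220%, with 1087 at an unadjusted p under 0.05), and among the 113 genes a change of the difference with immobilization was tested and passed in these 3 alone.

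**Figure D1:**
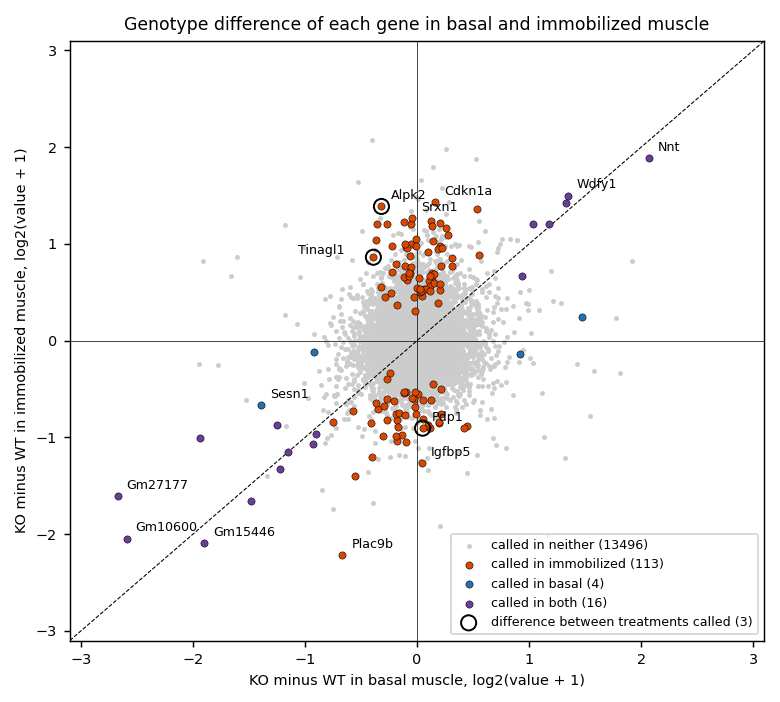
KO minus WT difference of each tested gene in basal muscle (x axis) against the same difference in immobilized muscle (y axis), both on the log2(value + 1) scale, with the dashed line at equal differences and colours for the calls in 1 or both treatments. The 16 genes called in both lie near the dashed line, while most of the 113 others lie near 0 on the x axis, with basal medians of 0.02 for the higher and -0.11 for the lower genes.

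The 6 genes higher in both treatments included 3 whose adjusted p was the lowest of the comparison. Nnt encodes the mitochondrial nicotinamide nucleotide transhydrogenase, which makes NADPH for glutathione and thioredoxin reduction, and C57BL/6 stocks are known to differ in an Nnt deletion. Nnt was at 18.3, 14.6, 17.2 and 15.8 in WT and at 61.9, 53.9, 63.4 and 76.5 in KO immobilized libraries, 16.5 ± 1.62 against 63.9 ± 9.39 (SD, n = 4). Every KO library lay above every WT library, by 1.89 (SE 0.15, limma adjusted p = 1.6e-07), and the basal means were 20.5 and 88.0 with the same order. Wdfy1, a FYVE-domain protein of endosomes, was at 7.56, 6.32, 7.38 and 6.43 in WT and 25, 22.4, 19.3 and 19.3 in KO (1.5, SE 0.12, adjusted p = 1.6e-07). Dynlt1b, a dynein light chain, was at 15.6, 15.1, 14.0 and 10.8 against 37.1, 40.6, 37.3 and 39.0 (1.42, SE 0.11, adjusted p = 1.6e-07). For both genes the groups did not overlap. Dynlt1b shared 83.2% of its 50-base words with other annotated genes, such as Dynlt1c, and Nnt 46.9%, with a further gene model of the same name, so the deposited values may be split between copies.

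Cd59a, an inhibitor of the complement attack complex, was at 14.4, 11.7, 15.6 and 14.7 in WT and 34.2, 34.8, 36.4 and 29.2 in KO libraries (1.2, adjusted p = 4.6e-06). Nbea, which encodes the trafficking protein neurobeachin, was at 1.64, 1.36, 1.93 and 2.36 against 4.89, 4.84, 5.93 and 6.24 (1.2, adjusted p = 0.00016). Rab4a, a small GTPase of endosome recycling, was at 8.41, 9.74, 8.43 and 7.60 against 12.9, 13.4, 15 and 15.4 (0.67, adjusted p = 0.015). None of the KO values of these 3 genes fell into the WT range.

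The 10 lower genes were mostly predicted gene models and members of gene copies. Gm10600, a protein-coding model on chromosome 4, was at 2.40, 3.21, 3.61 and 4.97 in WT and at 0.0719, 0.0687, 0.112 and 0.0574 in KO immobilized libraries (-2.05, adjusted p = 6.3e-07). Gm15446 on chromosome 5 was at 9.21, 14.5, 16.1 and 6.82 against 1.16, 1.21, 1.57 and 4.20 (-2.09, adjusted p = 6.7e-05). Gm27177 on chromosome 14 was at 4.02, 4.29, 4.01 and 4.86 against 0.148, 1.11, 0.729 and 1.15 (-1.61, adjusted p = 0.00053). The groups of all 3 stood apart, with Gm15446 closest in KO replicate 4. Gm17167, Gm13301 and Gm10600 are neighbours on chromosome 4, with starts within 200 kb. Gm10600 shared 92.5% of its 50-base words with other annotated genes and 88.8% with Gm17167, and Gm13301 shared 86.2% and 64%. Gm17167 differed by -1.66 (adjusted p = 3.5e-06) and Gm13301 by -1 (adjusted p = 0.021). The latter lost its call without WT replicate 2 (0.06) or 4 (0.053). Gm10524 differed by -1.15 (adjusted p = 0.014, lost without WT replicate 2 at 0.056 or KO replicate 1 at 0.053) and 1700112E06Rik by -0.87 (0.034, lost without WT replicate 1, 2 or 4 or KO replicate 1 or 3, at 0.058 to 0.12).

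Entpd4, a nucleotide-hydrolysing enzyme of the Golgi and lysosomes, and Gm21685, whose identifier is named Entpd4b in the annotation used, shared 100% of their 50-base words with each other. Entpd4 was at 126, 99.8, 97 and 114 in WT and at 49.7, 41.0, 63.8 and 52.4 in KO immobilized libraries (-1.07, adjusted p = 8e-06). Reads of these copies cannot be told apart, so their sum is given as well. It was 204, 167, 157 and 183 against 81.9, 66.2, 110 and 89.9, a log2 difference of -1.04 after immobilization and of -0.92 in basal muscle, without overlap in either. Gm27177, described above, shared 100% of its words with Gm16867, which was not analysed here, and its start lies within 200 kb of that of Gm21685, with an overlap of the gene ends on opposite strands.

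Plac9b, one of the copies of a gene for a small secreted protein named for its placental expression, had the largest decrease of the called genes on the log2(value + 1) scale. It was at 7.79, 3.01, 4.79 and 6.48 in WT and at 0.180, 0.173, 1.05 and 0.147 in KO immobilized libraries, 5.52 ± 2.07 against 0.388 ± 0.442 (SD, n = 4). The groups did not overlap (-2.22, SE 0.35, adjusted p = 0.0017, and 0.0016 to 0.013 without any 1 library). The basal difference was -0.67 with an adjusted p of 1, so Plac9b alone would read as a gene called after immobilization. Its copies Plac9a and Gm9780 gave another picture: Plac9a differed by -0.26 after immobilization and by -1.78 in basal muscle (adjusted p = 0.85 and 0.48), and Gm9780 by -1.33 and -1.22 (0.011 and 0.04). The sum of the 3 copies was 15.5, 12.7, 22.3 and 24.4 in WT and 7.46, 4.64, 7.98 and 3.53 in KO immobilized libraries. In basal muscle it was 14.2, 22.2, 22.5 and 25.9 against 6.17, 8.58, 4.93 and 9.95. The summed difference was -1.53 and -1.41, without overlap in either treatment, and Plac9b shared 96.6% of its 50-base words with other genes. The likeness of the copies extends upstream, where 172 of 172 compared bases of Plac9a and Plac9b were identical. The lines below, on the minus strand from RefSeq on GRCm38.p6, show 120 of them to make the identity visible, for Plac9a at chr14:25902972-25903091 and for Plac9b at chr14:26182352-26182471.
Plac9a: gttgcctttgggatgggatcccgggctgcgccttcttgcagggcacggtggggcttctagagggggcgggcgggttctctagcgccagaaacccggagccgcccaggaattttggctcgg
Plac9b: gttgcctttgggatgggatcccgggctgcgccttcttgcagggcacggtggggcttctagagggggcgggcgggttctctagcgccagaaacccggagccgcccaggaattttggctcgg

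**Figure D2:**
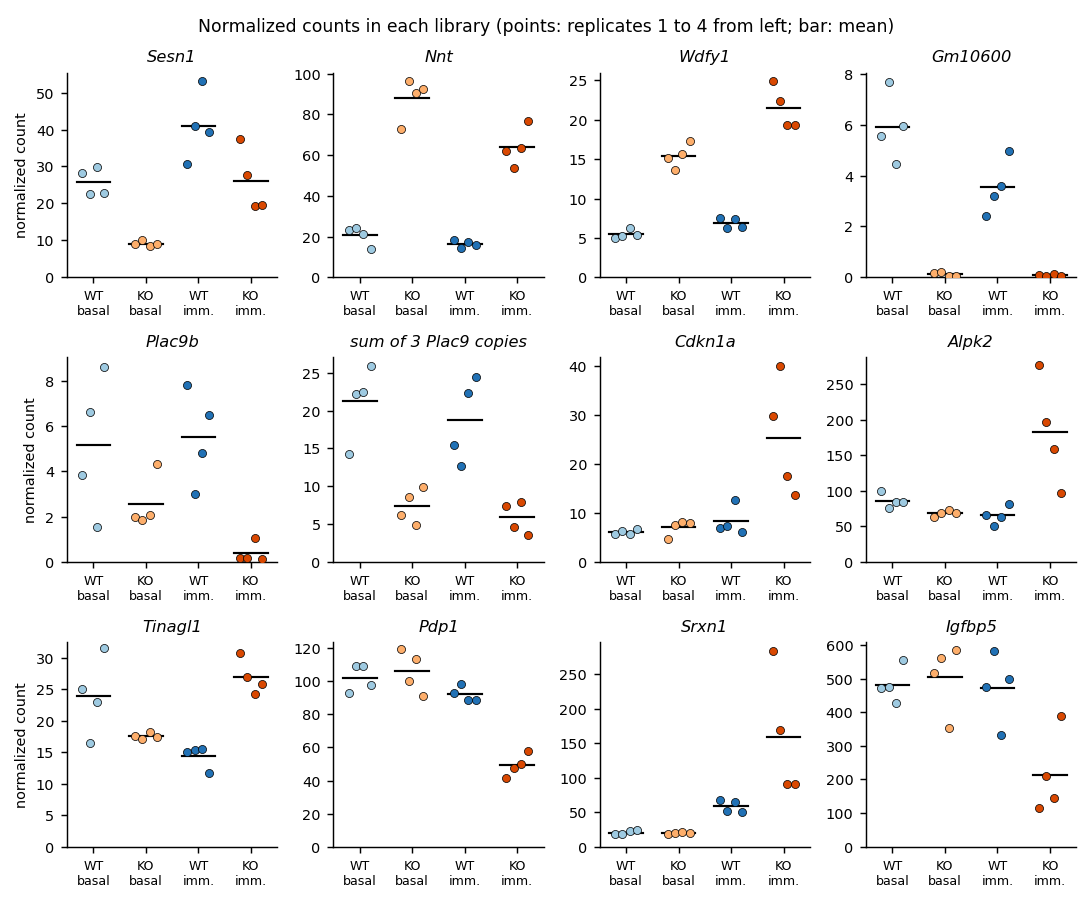
Normalized counts (y axis, linear, from 0) of 11 genes and of the summed Plac9 copies in each library, by genotype and treatment, with points for replicates 1 to 4 and a bar at the mean. Nnt and Wdfy1 lay higher in the KO in both treatments and the summed Plac9 copies lower, whereas Cdkn1a, Alpk2 and Srxn1 were higher in the immobilized KO libraries and reached their lowest KO value in replicate 4.

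A list of 7 genes whose copies or alleles are known to vary among C57BL/6 stocks was compiled with earlier results of these data known. It had 5 called members in immobilized muscle, Nnt and Wdfy1 higher and Plac9b, Entpd4 and Ide lower, against 0.947% of all tested genes. Nnt, Wdfy1 and Plac9b were named at the outset, so the count describes the list and tests nothing. Ide, the insulin-degrading enzyme, was at 229, 267, 125 and 218 in WT and 116, 108, 102 and 126 in KO libraries (-0.84, adjusted p = 0.015). WT replicate 3 lay within the KO range, and the call was lost without WT replicate 1 (0.054) or 2 (0.066). In basal muscle Ide differed by -0.75 (adjusted p = 0.1). The labels give 1 strain name for all mice, and the methods call the WT mice normal control mice and also littermate controls. The part of the stock in these genes was not tested.

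Among the genes called in immobilized muscle alone, Cdkn1a stood at the top of the higher ones. Cdkn1a encodes p21, the cyclin-dependent kinase inhibitor that p53 induces and that denervated muscle also expresses. It was at 6.96, 7.29, 12.7 and 6.05 in WT and at 29.8, 40.0, 17.5 and 13.6 in KO immobilized libraries, 8.26 ± 3.03 against 25.2 ± 12 (SD, n = 4). The KO libraries lay above all WT libraries, KO replicate 4 by little (1.43, SE 0.25, adjusted p = 0.0059, and 0.00035 to 0.027 without any 1 library). The call was lost with a fit of the compared groups alone (adjusted p = 0.33). In basal muscle the range was 5.75 to 6.68 in WT and 4.75 to 8.10 in KO (0.16, adjusted p = 1), and the test of the difference between treatments gave 1.27 with an adjusted p of 0.29. The sequence before its start, shown because Sesn1 and Cdkn1a are both p53 targets, holds 2 ACATGT words in capitals, the core of the p53 element (RefSeq, GRCm38.p6, chr17:29090870-29090978, plus strand).
Cdkn1a: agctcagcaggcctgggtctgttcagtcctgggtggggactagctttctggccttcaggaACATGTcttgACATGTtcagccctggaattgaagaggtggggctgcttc

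Of 30 listed p53 targets 28 were tested and 2 were called, both higher: Cdkn1a and Ckap2, a microtubule-associated protein of dividing cells. Of all tested genes 0.947% were called, and Cdkn1a was named at the outset, with earlier results known. Ckap2 was low, at 0.636, 0.281, 0.582 and 0.477 in WT and 6.18, 2.74, 1.4 and 1.35 in KO libraries (1.24, adjusted p = 0.017), and lost its call without WT replicate 2 (0.069). At an unadjusted p under 0.05, 6 members were higher and 2 lower, against 7.33% and 6.74% of all tested genes. The list had a median of 0.00, against -0.01 for all genes. Its other members did not pass, among them Plk2, a stress-induced polo-like kinase (0.72, adjusted p = 0.059), Zmat3 (0.55, 0.076) and Mdm2, the p53 ubiquitin ligase (0.40, 0.12). ACATGT was found in the 300-base RefSeq promoter window, which reaches from 250 bases before to 50 after the start, of 4 of 49 higher (8.16%) and 0 of 43 lower called genes with a window, against 6.14% of 27025 genes. The word reads the same on both strands.

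Genes of antioxidant defence gave 3 called members of 44 tested, all higher in the KO: Nnt, Srxn1 and Prdx6. Of all tested genes 0.947% were called. Nnt was named at the outset, with earlier results known, and was called in basal muscle as well. Srxn1 encodes sulfiredoxin, which repairs over-oxidized peroxiredoxins, the activity once proposed for the sestrins. Srxn1 was at 67.1, 52.1, 64.4 and 50.5 in WT and at 283, 169, 91.4 and 90.4 in KO immobilized libraries, without overlap (1.27, SE 0.24, adjusted p = 0.012). The call was lost without WT replicate 2 (adjusted p = 0.052). In basal muscle the KO and WT means were 19.7 and 20.5, so Srxn1 rose with immobilization in both genotypes, by 1.47 in WT and 2.78 in KO (adjusted p = 7.2e-05 and 1.9e-08). The difference between these rises did not pass the test (1.31, adjusted p = 0.24). Prdx6, a peroxiredoxin, was at 81.6, 86.4, 87.4 and 78.8 against 144, 115, 99.4 and 109, also without overlap (0.46, adjusted p = 0.028), and lost its call without WT replicate 1, 2 or 4 or KO replicate 1 (0.058 to 0.11).

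The antioxidant list's median of 0.00 was near that of all genes (-0.01). At an unadjusted p under 0.05, 8 of the 44 antioxidant genes were higher and 0 lower, against 7.33% and 6.74% of all tested genes. Nfe2l2, the factor NRF2 that drives many antioxidant genes, differed by 0.38 (adjusted p = 0.12) and Txnrd1, thioredoxin reductase, by 0.41 (0.12). The sequence at the Srxn1 start is shown for its TGAGTCA words, the AP-1 motif that NRF2 elements contain. It holds 2 of them, in capitals (RefSeq, GRCm38.p6, chr2:152105362-152105523, plus strand). TGAGTCA, sought on both strands, was in 4 of 49 higher windows (8.16%) and 1 of 43 lower ones (2.33%), against 5.95% of all.
Srxn1: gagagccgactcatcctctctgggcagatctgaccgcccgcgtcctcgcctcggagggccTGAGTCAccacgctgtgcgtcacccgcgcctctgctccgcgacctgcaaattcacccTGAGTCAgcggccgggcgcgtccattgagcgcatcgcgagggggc

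Further motifs, sought in the same windows on both strands, were TGACNNNGC, in 14.3% of higher, 20.9% of lower and 14% of all windows, the forkhead word GTAAACA, in 4.08%, 2.33% and 4.05%, and the CREB word TGACGTCA, in 6.12%, 2.33% and 2.03%. TGACNNNGC can overlap TGAGTCA. TGACGTCA was present in 3 of the 49 higher and 1 of the 43 lower called genes. A match describes the letters and not a bound site.

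The ubiquitin ligases of atrophy were not called. Trim63 was at 521, 1070, 939 and 590 in WT and at 274, 737, 334 and 737 in KO immobilized libraries (-0.66, adjusted p = 0.28). Fbxo32 was at 1020, 1906, 1194 and 864 against 201, 980, 288 and 1169 (-1.23, adjusted p = 0.15). KO replicates 1 and 3 were the lowest for both genes, and for Fbxo32 they lay in the basal range of both genotypes, 183 to 390. Without KO replicate 4, a fit that called 609 genes against 129 with every library, Fbxo32 passed the test (adjusted p = 0.017). Compared with basal muscle Trim63 rose by 2.09 in WT and 1.72 in KO (adjusted p = 7.7e-06 and 5.2e-05). Fbxo32 rose by 1.90 in WT (adjusted p = 0.00091), and its KO difference of 1.02 passed narrowly (0.049), with KO replicates 1 and 3 in the basal range. The difference between the genotypes' changes did not pass for either ligase (adjusted p = 0.86 and 0.75).

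Of the 31 atrophy and FoxO genes tested, 1 was called higher and 1 lower, against 0.528% and 0.418% of all tested genes. Map1lc3a, an LC3 protein of autophagosomes, was at 128, 111, 121 and 129 in WT and 169, 157, 188 and 130 in KO (0.39, adjusted p = 0.048). Pik3ip1, an inhibitor of phosphoinositide 3-kinase and thereby of AKT signalling, was at 53.7, 68.0, 46.7 and 51.2 against 22.7, 19.0, 21.7 and 48.8 (-1.03, adjusted p = 0.03). KO replicate 4 lay within the WT range of Pik3ip1 and nearly within that of Map1lc3a. Map1lc3a kept its call only without KO replicate 4 (adjusted p of 0.055 to 0.16 without any other library), and Pik3ip1 lost it without WT replicate 1 or 2 or KO replicate 1, 2 or 3 (0.064 to 0.12). Foxo1 differed by 0.65 (adjusted p = 0.078) and Pdk4, the pyruvate dehydrogenase kinase that FoxO factors induce, by 0.70 (0.23). The list's median was -0.07. Among 42 core autophagy genes, with a median of -0.03, Map1lc3a was the 1 called, against 0.947% of all tested genes.

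Genes of the sestrin and mTORC1 network showed little. All 44 were tested and 0 were called by limma, against 0.947% of all tested genes (median -0.05). At an unadjusted p under 0.05, 1 was higher and 7 lower, Sesn1 among the latter, against 7.33% and 6.74% of all tested genes. The other lower ones included Ulk1, the kinase that starts autophagy (-0.42, adjusted p = 0.34), and Prkaa2, the AMPK catalytic subunit of muscle (-0.45, 0.23). Depdc5, a subunit of the GATOR1 complex that inhibits mTORC1, was the higher one (0.47, 0.18). Pdpk1, which encodes the kinase that activates AKT and was named after its values were seen, was called higher, at 67.8, 72.0, 81.6 and 64.7 in WT and 101, 98.2, 107 and 86.2 in KO (0.45, adjusted p = 0.011, without overlap).

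**Figure D3:**
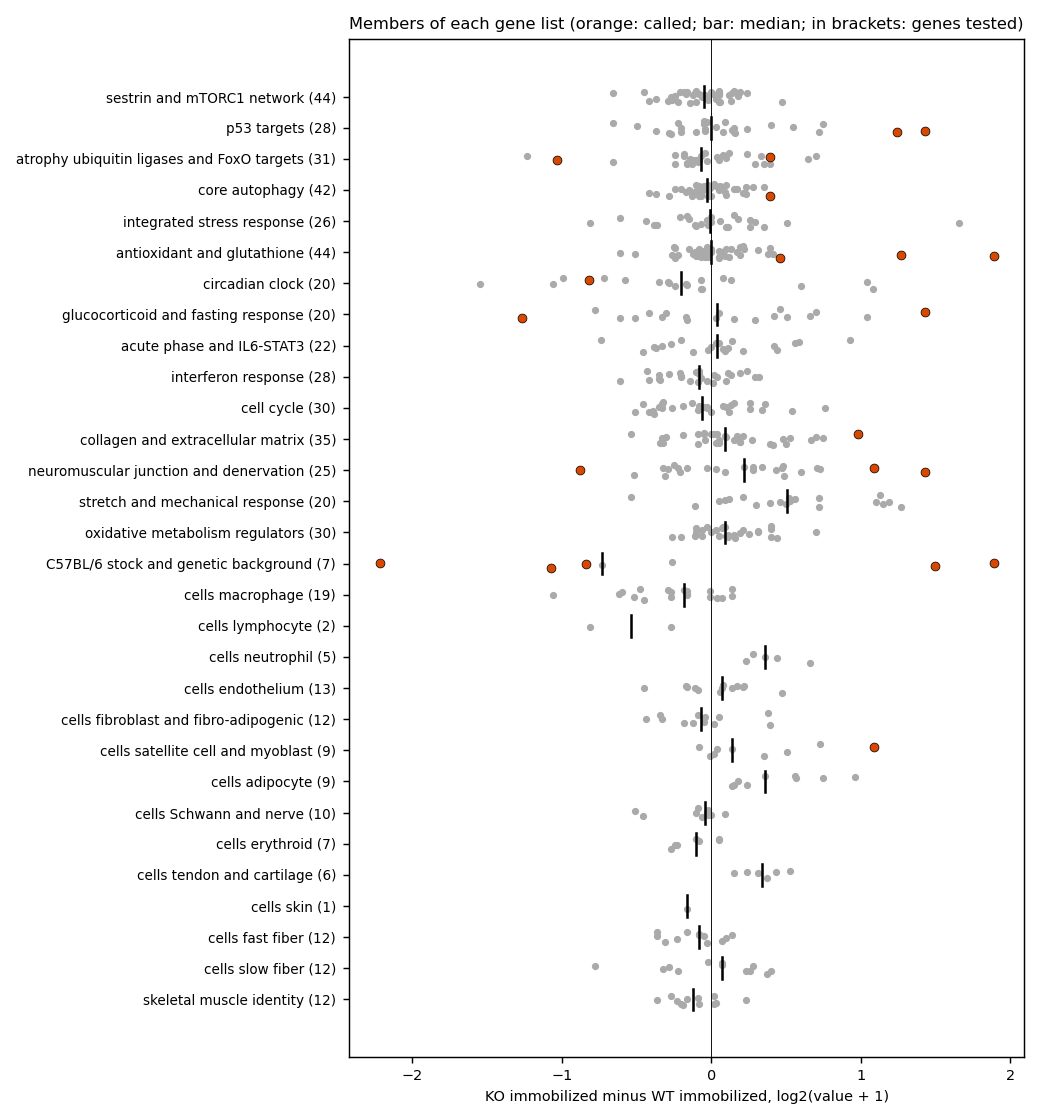
Log2(value + 1) difference, KO minus WT immobilized, of each tested member of the gene lists (points, orange where called), with a bar at the list median and the number tested in brackets. Members of the clock list lay mostly below 0 (median -0.21) and those of the stretch list mostly above 0 (median 0.51), with 1 and 0 called members, while the median of all genes was -0.01.

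Of 20 clock genes tested 1, Hlf, was called, against 0.947% of all tested genes. Arntl (BMAL1), the activator, was at 22.2, 25.4, 13.5 and 14.9 in WT and 69.3, 44.3, 29.4 and 24.9 in KO (1.04, adjusted p = 0.072). Dbp, a target of the activator, was at 38.3, 26.7, 37.8 and 60.1 against 6.50, 4.13, 32.1 and 26.6 (-1.55, 0.085), and Per3, a repressor of the clock, at 21.4, 21.2, 16.6 and 25.2 against 5.70, 6.80, 12.9 and 19.7 (-0.99, 0.057). In each, KO replicates 3 and 4 lay nearer to WT than replicates 1 and 2. Hlf, a PAR-bZIP factor like Dbp, was at 14.0, 13.7, 10.1 and 13.4 against 5.26, 5.35, 9.14 and 8, without overlap (-0.82, SE 0.17, adjusted p = 0.017). It lost the call without WT replicate 1 (0.06) or 2 (0.069) or KO replicate 1 (0.079). At an unadjusted p under 0.05, 3 clock genes were higher and 8 lower, against 7.33% and 6.74% of all tested genes. Among the lower ones were Per2 (-0.58, adjusted p = 0.16), Ciart (-1.06, 0.11) and Tef (-0.35, 0.12). Nfil3, the repressor of the same D-box sites, was higher (1.08, 0.1). Without KO replicate 4, Arntl, Dbp, Per2, Per3, Ciart, Tef and Nfil3 passed the test (adjusted p of 0.0012 to 0.024). That fit called 609 of the 13629 tested genes, against 129 with every library. The time of day at which muscles were taken was not found in the sources used here, so its part was not tested.

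Genes induced by stretch and mechanical load showed the highest list median, 0.51, with 0 of 20 called by limma, against 0.947% of all tested genes. At an unadjusted p under 0.05, 9 were higher and 1 lower, against 7.33% and 6.74% of all tested genes. Ankrd1, a titin-associated stress protein, was at 113, 152, 372 and 164 in WT and at 1241, 436, 434 and 151 in KO (1.27, adjusted p = 0.29). The small heat shock protein gene Hspb1 was at 287, 205, 441 and 281 against 1612, 533, 573 and 358 (1.15, 0.078, with 48.8% of its 50-base words shared with the pseudogene Hsp25-ps1), and Xirp1, an actin-binding protein of damaged fibers, at 432, 322, 952 and 474 against 2443, 895, 1051 and 575 (1.1, 0.12). KO replicate 1 was by far the highest library for all 3, and KO replicate 4 lay in the WT range. Without KO replicate 4 Hspb1 (adjusted p = 0.011) and Xirp1 (0.019) passed the test, and Xirp1 also without WT replicate 3 (0.039). Ankrd23, the lowest of the list (-0.54), passed in the opposite direction without KO replicate 4 (-0.74, adjusted p = 0.032). It shared 75% of its 50-base words with other genes. In the list 18 members were above 0 and 2 below. The fit without KO replicate 4 called 609 genes in all.

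**Figure D4:**
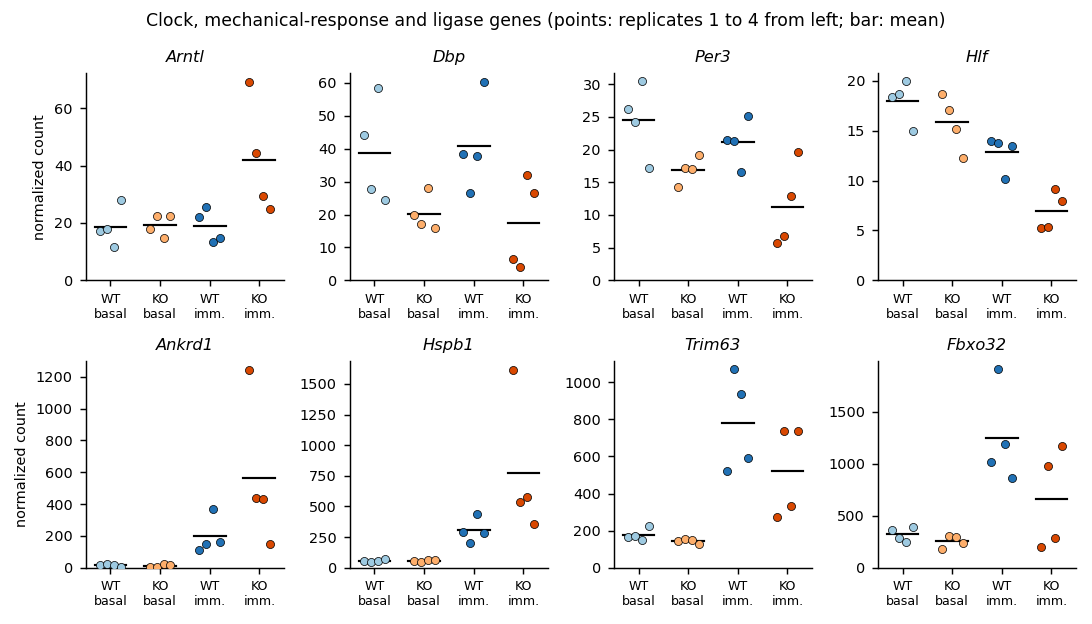
Normalized counts (y axis, linear, from 0) of 4 clock genes, 2 genes of mechanical load and the ligases Trim63 and Fbxo32 in each library, with points for replicates 1 to 4 and a bar at the mean. KO immobilized replicate 1 was highest for Arntl, Ankrd1 and Hspb1, and replicates 1 and 3 were lowest for both ligases.

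Among neuromuscular junction and denervation genes 25 of 26 were tested, with a median of 0.22. Of these 2 were called higher and 1 lower, against 0.528% and 0.418% of all tested genes. The higher ones were Cdkn1a, which was named at the outset, and Myog, the myogenic factor myogenin that induces denervation genes. Myog was at 1.58, 2.00, 4.02 and 4.63 in WT and 11.1, 7.53, 7.07 and 4.41 in KO libraries, with KO replicate 4 in the WT range (1.09, adjusted p = 0.031). Hdac9, a histone deacetylase that represses Myog and other activity-dependent genes, was lower, at 4.09, 6.12, 5.75 and 7.45 against 3.97, 1.64, 2.77 and 2.63 (-0.88, adjusted p = 0.032). Both calls depended on single libraries: Myog lost it without WT replicate 1 or 2 or KO replicate 1, 2 or 3 (0.054 to 0.14), and Hdac9 without WT replicate 2, 3 or 4 or KO replicate 2 or 3 (0.053 to 0.1). Myod1 (0.73, adjusted p = 0.078) and Musk, the agrin receptor kinase (0.71, 0.068), did not pass. Both passed without KO replicate 4 (0.013 and 0.034), where 609 genes in all were called.

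The glucocorticoid and fasting list had 2 called members of 20, against 0.947% of all tested genes. They were Cdkn1a, which was named at the outset and is counted in lists above as well, and Igfbp5. Igfbp5, a binding protein of insulin-like growth factors, was at 475, 582, 333 and 499 in WT and 114, 209, 144 and 390 in KO libraries (-1.27, adjusted p = 0.028). KO replicate 4 lay within the WT range, and the call was lost without WT replicate 1, 2 or 4 or KO replicate 1 or 3 (0.056 to 0.12). Angptl4, an inhibitor of lipoprotein lipase (1.04, adjusted p = 0.094), and Fkbp5, a classical glucocorticoid target (0.66, 0.2), had higher values without passing, and Klf15, another glucocorticoid target, lower ones (-0.78, 0.19). The list's median was 0.04.

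Only 3 genes passed the test of the difference between immobilized and basal muscle, each with an adjusted p of 0.026. Alpk2, an alpha kinase of heart and skeletal muscle, was at 65.7, 51.0, 63.5 and 81.3 in WT and 276, 197, 159 and 97.6 in KO immobilized libraries, without overlap (1.39, SE 0.20, adjusted p = 0.00072). This call in immobilized muscle was lost with a fit of the compared groups alone (adjusted p = 0.15). In basal muscle the KO libraries, at 63.2 to 73.7, lay below the WT libraries, at 75.7 to 100, and the difference between treatments was 1.7 (SE 0.28). Tinagl1, a matrix protein related to the tubulointerstitial nephritis antigen, was at 15, 15.3, 15.6 and 11.7 in WT and 30.8, 26.9, 24.2 and 25.9 in KO immobilized libraries (0.86, adjusted p = 0.0045), and the difference between treatments was 1.25 (SE 0.20). It fell with immobilization by 0.67 in WT and rose by 0.58 in KO muscle (adjusted p = 0.0012 and 0.0031). Pdp1, the phosphatase that activates pyruvate dehydrogenase, was at 93.0, 98.7, 88.8 and 88.8 in WT and 41.3, 47.4, 50.1 and 57.8 in KO immobilized libraries (-0.90, SE 0.11, adjusted p = 5e-05). The groups were far apart, whereas in basal muscle they overlapped, at 93.0 to 109 and 91.2 to 120, and the difference between treatments was -0.95 (SE 0.15). Leaving out any 1 of WT immobilized replicates 1, 2 and 3, KO immobilized replicate 2, WT basal replicates 1, 3 and 4 and KO basal replicates 1, 2 and 3 left 0 genes called for this difference, and leaving out KO basal replicate 4 left 1 and KO immobilized replicate 1 left 2. The highest number, 14, came without KO immobilized replicate 4, and 7 and 6 came without KO immobilized replicate 3 and WT immobilized replicate 4.

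Of the other genes with large differences, Pde4d, a phosphodiesterase that breaks down cAMP, was at 50.2, 56.2, 59.0 and 79.4 against 144, 211, 141 and 91.7 (1.21, adjusted p = 0.00072), and Sik1, a kinase induced by cAMP, at 14.7, 12.6, 24.1 and 17.3 against 54.3, 39.6, 36.6 and 28.2 (1.16, adjusted p = 0.0012). Neither gene overlapped between the groups, and both kept the call without any 1 library. With a fit of the compared groups alone both lost it (adjusted p = 0.13 and 0.15). A further row named Pde4d (0.87), counted as a gene of its own among the calls, also kept the call without any 1 library. Lpar6, a receptor of lysophosphatidic acid (1.23, adjusted p = 0.015), lost it without KO replicate 1 (0.067). The zinc importer Slc39a10 was at 8.24 to 9.80 in WT and 40.6, 33.8, 18.1 and 9.15 in KO (1.21, adjusted p = 0.038), and the metalloprotease Adam8 at 0.0712 to 0.986 against 1.35 to 4.64 (1.21, 0.045). The former lost the call without any 1 WT replicate or KO replicate 1 or 2 (0.064 to 0.16), and the latter without WT replicate 1, 2 or 4 or KO replicate 1 or 2 (0.071 to 0.13). Fam65b, a RhoA inhibitor of myoblast fusion, was at 0.762 to 1.76 against 2.31 to 6.63 (1.2, adjusted p = 0.014). Of 35 extracellular matrix genes 1 was called, against 0.947% of all tested genes. This was Eln, elastin, at 6.39 to 6.69 in WT and 10.9 to 18.7 in KO (0.98, adjusted p = 0.025, lost without WT replicate 1 or 2 or KO replicate 1 or 2 at 0.059 to 0.071).

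On the lower side, Trp53i11, a p53-inducible membrane protein that is not on the list of p53 targets, was at 6.92, 7.78, 8.46 and 10.5 in WT and 2.99, 3.61, 1.98 and 3.85 in KO libraries, without overlap (-1.21, adjusted p = 0.011). Slc43a1, a transporter of leucine and other large neutral amino acids, was at 12.5, 20.6, 13.7 and 14.7 against 3.93, 8.08, 6.59 and 9.92 (-1.04, adjusted p = 0.027). It lost the call without WT replicate 2 (0.11) or KO replicate 1 (0.11) or 3 (0.051). A row named Rpp14, whose identifier was not in the annotation used, differed by -1.4 (adjusted p = 0.034, lost without any 1 WT replicate or KO replicate 1 or 3 at 0.053 to 0.14).

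Some genes with smaller differences were chosen after their values were seen, because they kept their call without any 1 library or are known in muscle. Nfat5, the factor of osmotic stress, was at 41.6, 30.5, 40.6 and 32.7 in WT and 105, 74.8, 63.3 and 57.2 in KO (1, adjusted p = 0.00048), and Ell2, an elongation factor, at 15.2 to 21 against 23.9 to 49.7 (0.97, 0.0017). Lower were Art1, the ADP-ribosyltransferase of muscle membranes, at 313, 358, 368 and 333 against 179, 222, 250 and 257 (-0.61, 0.0028), Ksr1, a scaffold of the MAP kinase pathway, at 172 to 228 against 95.6 to 156 (-0.76, 0.011), and Vgll4, a TEAD cofactor, at 8.13 to 11.1 against 3.25 to 7 (-0.87, 0.0087). The groups of these 5 genes did not overlap. With a fit of the compared groups alone all 5 lost the call (adjusted p of 0.13 to 0.35). Asb15, a muscle ubiquitin ligase adaptor (-0.97, 0.016), and Ppp1r3a, the glycogen-targeting phosphatase subunit of muscle (-0.59, 0.03), lost the call without WT replicate 2 or KO replicate 1 (0.06 to 0.12), and Ppp1r3a also without WT replicate 3 (0.056) or KO replicate 3 (0.058). Rcan1, the calcineurin inhibitor (0.98, 0.041), lost it without WT replicate 1 or 2 or KO replicate 1, 2 or 3 (0.063 to 0.16).

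The KO libraries differed among themselves in the genes called after immobilization alone. KO replicate 1 was the farthest from the WT mean in 43 of the 66 higher and 25 of the 47 lower genes, and replicate 4 the nearest in 45 and 26. The median log2 difference from the WT mean was 1.11, 0.82, 0.73 and 0.46 in KO replicates 1 to 4 for the higher genes and -0.88, -0.78, -0.81 and -0.46 for the lower ones. For the 16 genes called in both treatments the median absolute difference was 1.3, 1.35, 1.33 and 1.28, about equal in the 4 libraries. These 113 genes were chosen with the same libraries, so their distances describe the calls and test nothing.

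**Figure D5:**
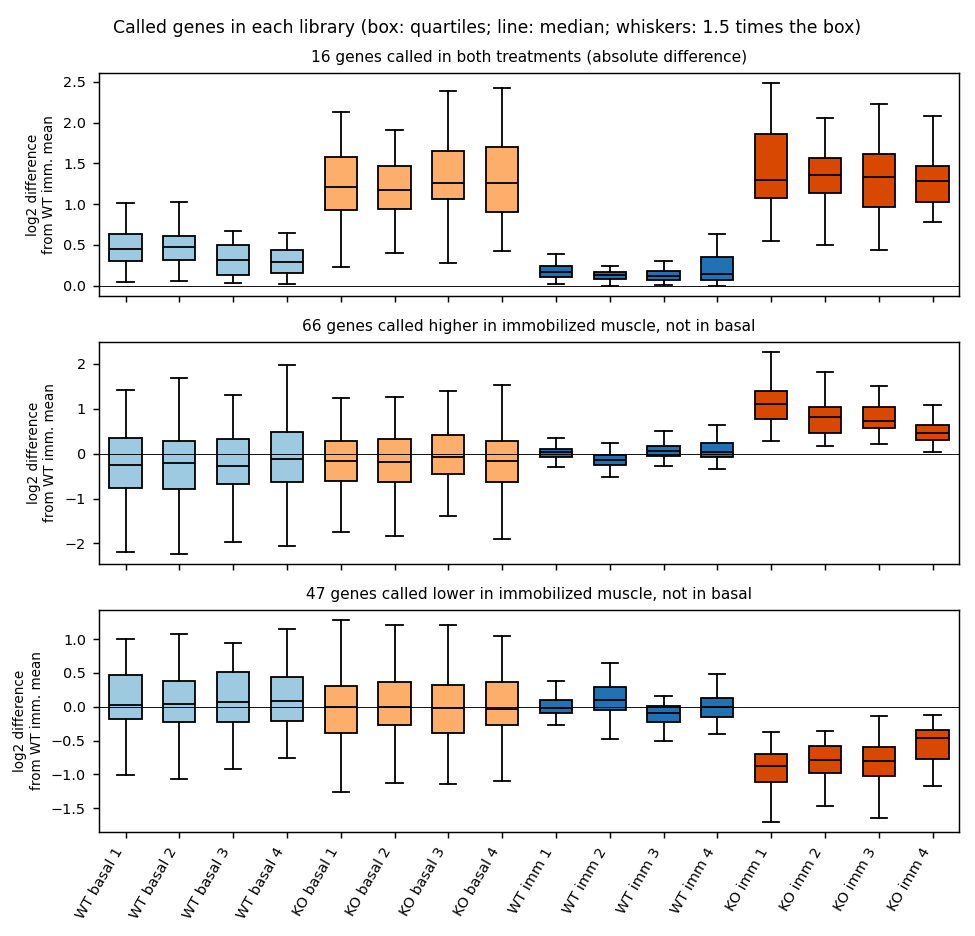
Log2 difference of each library from the mean of the WT immobilized libraries (y axis), for the genes called in immobilized muscle alone, higher and lower, and for those called in both treatments, with boxes at the quartiles and a line at the median. In the first groups KO immobilized replicate 1 lay farthest and replicate 4 nearest to WT (medians 1.11 and 0.46 for the higher genes), while the genes called in both differed alike in all 4 KO libraries.

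Leaving out each of the 8 libraries in turn kept 33 of the 129 genes called in every fit. Of these 13 belong to the 16 called in both treatments and 20 to the other 113, 10 higher and 10 lower. With a fit of the compared groups alone 11 of the 16 and 3 of the 113, Pdp1, Plac9b and Tinagl1, were called. Libraries weighted by their quality gave 29 calls, 12 and 17 from these groups.

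Markers of other cells were read beside these results, since in bulk muscle fewer cells of a type and less RNA per cell cannot be told apart. Of 11 satellite cell and myoblast markers 9 were tested and Myog was the 1 called, against 0.947% of all tested genes. In the other cell lists 0 markers were called by limma. Macrophage markers, 19 of 20 tested, summed to 189 to 362 in WT and 88.7 to 562 in KO immobilized libraries, with the KO range wider than and around the WT range. Fibroblast markers (12 of 12) summed to 1000 to 2230 against 792 to 1910, endothelial markers (13 of 13) to 311 to 466 against 352 to 461, and neutrophil markers (5 of 8) to 1.25 to 8.18 against 4.03 to 13.3. Lymphocyte markers (2 of 15) summed to 12.9 to 25.3 against 7.60 to 17.7, erythroid markers (7 of 8) to 252 to 596 against 251 to 594, and Schwann cell markers (10 of 11) to 41.3 to 63.0 against 42.7 to 52.0. Every one of these ranges overlapped. Tendon markers (6 of 9) summed to 66.4 to 243 against 105 to 335, and the 1 tested skin marker of 8, Krt10, was at 1.15 to 1.91 against 0.876 to 1.61. No listed value was 0, and the part of these cells in the results was not tested.

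Of 10 adipocyte markers 9 were tested, with mostly higher KO values and a median of 0.36. Their summed levels were 325 to 394 in WT and 343 to 525 in KO. At an unadjusted p under 0.05, 5 were higher, against 7.33% of all tested genes. None passed the adjusted test, and Adipoq, which defines adipocytes, was at 0.126 to 1.86 in WT and 0.469 to 1.18 in KO. Fast fiber markers had a median of -0.08 and slow fiber markers of 0.07. Myh4, the myosin of the fastest fibers, was at 39750, 41190, 38360 and 32750 in WT and 23280, 31050, 39000 and 26780 in KO libraries (-0.36, adjusted p = 0.41), with KO replicate 3 in the WT range.

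Lists for the integrated stress response (26 of 30 tested, median -0.01), the acute phase and IL6-STAT3 response (22 of 28, 0.04), the interferon response (28 of 30, -0.08), the cell cycle (30 of 30, -0.06) and regulators of oxidative metabolism (30 of 30, 0.09) had 0 called members by limma. At an unadjusted p under 0.05 they had 1, 1, 0, 0 and 4 higher and 2, 1, 2, 3 and 1 lower members. Of all tested genes 7.33% were higher and 6.74% lower at that threshold. Atf4, the main factor of the integrated stress response, was at 233, 253, 264 and 200 in WT and 343, 285, 212 and 226 in KO, which overlapped (0.15, adjusted p = 0.68), and Ppargc1a, the coactivator of mitochondrial genes, at 25.6 to 41.0 against 26.4 to 54.7 (0.21, 0.65).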

How the data were processed

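RNA was isolated by the authors (QIAzol, RNeasy), made into NEBNext Ultra libraries and sequenced on an Illumina HiSeq. According to the submitters' processing notes, cutadapt 1.7.1 and RSEM 1.2.20 were used with GRCm38. The deposited signal values are normalized counts, linear, near CPM; depth is unknown, so no counting error is given.

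Groups came from the sample labels. Genes reaching 1 in any library of set 2 were kept (13629 of 13809). In R 4.3.3, limma 3.58.1 was fitted to log2(value + 1) with a coefficient for each of 5 groups and eBayes with a trend. The p-values, two-sided, were Benjamini-Hochberg adjusted over all tested genes, with calls at adjusted p under 0.05 and an absolute difference of at least 0.25. On simulated data for the KO against WT immobilized comparison (13342 genes), 91 of 100 genes changed by 1 and 91 of 100 changed by 2 on the log2 scale were recovered, with 14 false calls among 13143 unchanged genes. The simulation gave each gene the same spread in all 5 groups and made no library unlike its fellows. It therefore does not measure recovery or false calls where the spread differs between groups.

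Named genes were Nnt, Wdfy1, Cdkn1a, Plac9b, the sestrins, the 12 largest increases and decreases among the calls, called list members or up to 4 examples, calls within 10 Mb of Sesn1, genes called in both treatments and those called for the difference between treatments. Other named genes were chosen after their values were seen. A gene that the rule names is not reported here. The members, gene lists and tests were chosen with earlier results of these data known. Coordinates are from GENCODE M21. Shared sequence was counted as 50-base words in annotated exons; promoter windows are from RefSeq. Alternatives covered filters, pseudocounts, scaling, the variance model, library weights, a replicate block, the groups fitted, thresholds and leaving out each library. Plots used Python 3.11.15 and matplotlib 3.10.9.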

Additional observations from a re-analysis of the deposited data

Results flagged for a closer look

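For 26 of 300 combinations of a named gene and an immobilized group (8.67%), 1 library lay farther from its 3 fellows than Dixon's limit for 4 samples allows, where chance alone marks about 1 in 20. Among the KO libraries, replicate 2 was alone with Socs3 at 32.5, Stat3 at 147, Itgam at 16.2, Nfe2l2 at 70.7 and Adam8 at 4.64 above the others and with Ttn at 4095 and Ifit3 at 0.743 below them. Socs3 and Stat3 belong to the acute-phase response to IL6, and Itgam marks myeloid cells. KO replicate 1 stood above its group with Plin1 at 1.27, Tnmd at 6.83, Hbb-bs at 212 and Hba-a2 at 184.5, genes of adipocytes, tendon and red blood cells. KO replicate 4 stood nearer to WT than its fellows with Nfil3 at 13.3, Pik3ip1 at 48.8 and Gm15446 at 4.20, and KO replicate 3 stood above its group with Ckm at 16120 and Plac9b at 1.05.

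Among the WT libraries, replicate 3 was alone with Adam8 at 0.986, Plk2 at 18 and Ifit2 at 4.01 above and Fam65b at 0.762, Hlf at 10.1 and Cxcr2 at 0.0845 below the others. WT replicate 4 was alone with Musk at 25.6 and Itgam at 12.4 above and Tinagl1 at 11.7 and Gm10524 at 4.89 below. The part of blood, tendon, fat or myeloid cells in these libraries was not tested.

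The genotype difference of 3 genes differed between immobilized and basal muscle by a test of that difference, with a limma adjusted p of 0.026 each: Alpk2 by 1.7, Tinagl1 by 1.25 and Pdp1 by -0.95 on the log2(value + 1) scale. In every KO immobilized library Alpk2 and Tinagl1 lay above and Pdp1 below all 4 WT immobilized libraries.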

How the results depend on the processing

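The count of 129 genes called in immobilized muscle fell to 29 with library weights, to 14 with a fit of the compared groups alone and to 35 at an absolute log2 difference of at least 1, and ranged from 40 to 609 when 1 library was left out. It was 46 higher and 57 lower with values scaled to the same sum, 93 and 50 with median centring and 54 and 62 without a trend in eBayes. Fewer libraries enter the fit of the compared groups, and in basal muscle that fit gave 23 calls, against 20. The mean correlation of a library with its own group was 0.972 to 0.976 in KO and 0.977 to 0.981 in WT immobilized muscle. It was 0.984 to 0.987 in KO basal, 0.982 to 0.986 in WT basal and 0.987 to 0.989 in WT denervated muscle. A spread shared by all 5 groups can be too small for the less alike immobilized groups, and their p-values then too low. The cause of these shifts was not tested. The 20 basal calls ranged from 18 to 22 without 1 library and from 15 to 29 under the other settings. The 3 calls for the difference between treatments became 5 with quantile normalization, 5 with median centring, 5 with robust eBayes, 1 with library weights and 0 without a trend in eBayes, with the replicate block or with only the compared groups, and ranged from 0 to 14 without 1 library. Sesn1 in immobilized muscle ranged from -0.85 to -0.53 without 1 library (adjusted p of 0.016 to 0.17). Without KO immobilized replicates 1 and 4, a choice made after seeing the data, Sesn1 differed by -0.77 (adjusted p = 0.04), 159 genes were called in immobilized muscle and 14 for the difference between treatments. Replicate numbers did not pair the libraries: deviations of same-numbered KO and WT immobilized libraries correlated at -0.094 to 0.096, and 1 of 8 libraries correlated best with its own number. With the replicate block 102 genes were called in immobilized muscle and 20 in basal muscle, and Sesn1 differed by -0.66 (adjusted p = 0.099). Of 54 named called genes, 13 kept their call in all 12 settings that used every library, 28 without any 1 library and 13 in both, and no named gene reversed. Scaling to the same sum moved the median of all genes to -0.052. Depth is unknown, so small differences in low genes cannot be set against counting error.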

Other observations

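Basal muscle had 4 called genes that were not called after immobilization. Besides Sesn1, these were Zic1, a zinc finger factor of development (1.47 higher in the KO, limma adjusted p = 0.0013, against 0.24 and 0.68 after immobilization), Tecta, tectorin alpha of the inner ear (0.92, 0.0064, against -0.14 and 0.73), and Pydc3, an interferon-inducible pyrin-domain gene (-0.92, 0.011, against -0.12 and 0.8). The test of the difference between treatments did not call Zic1 (-1.23, adjusted p = 0.24), Tecta (-1.06, 0.14) or Pydc3 (0.81, 0.34).

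From basal to immobilized muscle several genes of the genotype comparison changed in the KO without a called change in WT. These changes share libraries with the genotype comparison and are given side by side. Cdkn1a changed by 0.33 in WT (limma adjusted p = 0.32) and by 1.60 in KO (3e-05), and Igfbp5 by -0.05 (0.91) and -1.36 (0.00048). Pdp1 changed by -0.14 (0.31) in WT and -1.10 (8.6e-08) in KO. Musk changed in both, by 1.62 (1.2e-06) and 2.23 (1.2e-08), as did Ankrd1, by 3.63 (2.9e-05) and 5.23 (2.3e-07). For all but Pdp1 the difference between the genotypes' changes did not pass the test, with adjusted p of 0.29 for Cdkn1a, 0.34 for Igfbp5, 0.57 for Musk and 0.63 for Ankrd1.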
